A study of Mus musculus with 36 samples.

Results

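The change in heart RNA between 12 pm, read as noon, and 4 pm was measured within control hearts and within cK15 hearts, and the 2 changes were then compared. Each change is called a step here. It set the 3 libraries of 4 pm against the 3 of noon from the same genotype, so 12 of the 36 libraries of the series entered directly. All 23352 gene entries of the deposited tables belonged to the comparison. A total of 10599 with a mean of at least 1 FPKM (fragments scaled to gene length and library total) over the 36 libraries were tested, and 12753 were below that level.

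Controls were alpha-MHC cre mice, in which the alpha myosin heavy chain promoter drives Cre recombinase in heart muscle cells. The cK15 mice are labelled as knockouts of Klf15, a zinc-finger transcription factor of the Kruppel-like family. Not given in the sources used here are how the allele was deleted and whether cK15 mice carried the same transgene. Both genotypes were males of 11 to 12 weeks, labelled C57BL/6 or C57BL/6J, kept in 12 h of light and 12 h of dark, and the tissue was the apex of the heart. Libraries were numbered 2, 3 and 4 in control and 1, 3 and 4 in cK15, and values below are given in that order. The labels do not tie libraries to animals. The p-values therefore reflect variation among these libraries alone, and part of it may be technical. The clock time at which lights came on is not given.

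The circadian clock of mammalian cells is a transcriptional loop. Arntl (Bmal1) pairs with Clock or Npas2, binds E-box sequences and activates the Per and Cry genes, whose proteins in turn repress Arntl and Clock. Nr1d1 and Nr1d2 repress Arntl through ROR elements, which the Ror receptors activate, and PAR bZIP factors such as Dbp and Tef act through D-box sequences. In the heart, many genes of metabolism and growth follow this loop over the day.

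Promoters of clock genes are shown first because Per2 passed the threshold in both steps and Arntl and Gm129 had the largest control changes past it; Per1 and Per3 are shown as relatives of Per2. Sequences are from RefSeq for build GRCm38.p6, in a table of 32851 windows of 300 bases, from 250 before to 50 after a gene start. Of 17 tested clock genes 14 were matched, and Per2 and Bhlhe40 were among those that were not. The 250 bases before the start are printed 5′ to 3′, with matches in capitals. Gm129, the older symbol of Ciart (a repressor of the Arntl and Clock pair), lies at chr3:95882229-95882478 on the minus strand and holds 3 E-boxes (CACGTG). Per1 lies at chr11:69098699-69098948 on the plus strand and holds 1. Per3 lies at chr4:151044666-151044915 on the minus strand and holds 2 D-boxes (TTATGTAA).
Gm129: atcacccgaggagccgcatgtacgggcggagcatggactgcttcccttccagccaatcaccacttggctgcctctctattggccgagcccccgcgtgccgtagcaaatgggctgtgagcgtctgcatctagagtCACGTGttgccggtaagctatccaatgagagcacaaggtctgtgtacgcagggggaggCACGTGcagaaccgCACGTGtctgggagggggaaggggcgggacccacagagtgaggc
Per1: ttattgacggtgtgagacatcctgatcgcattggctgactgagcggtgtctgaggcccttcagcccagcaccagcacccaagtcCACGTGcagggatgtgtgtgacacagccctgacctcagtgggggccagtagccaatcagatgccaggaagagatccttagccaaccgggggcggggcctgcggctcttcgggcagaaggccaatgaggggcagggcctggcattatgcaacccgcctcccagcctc
Per3: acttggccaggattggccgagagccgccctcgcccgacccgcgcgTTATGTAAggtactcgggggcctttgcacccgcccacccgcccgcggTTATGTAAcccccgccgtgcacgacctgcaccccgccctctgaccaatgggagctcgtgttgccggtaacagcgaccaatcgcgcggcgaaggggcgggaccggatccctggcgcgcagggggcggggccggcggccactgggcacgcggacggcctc
For Arntl only the 30 bases around its single ROR element match are shown, at chr7:113207528-113207557 on the plus strand. This match lies after the start used, from base 28 to base 37. That start lies inside the span given for Arntl below.
Arntl: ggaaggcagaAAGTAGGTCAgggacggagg
Searched on both strands, the E-box letters were in 7.15% of all windows, the D-box letters in 0.938% and the ROR element in 0.219%. Besides Per1 and Gm129, the clock genes with an E-box match were Cry1, Bhlhe41 and Tef, which makes 5 of the 14 matched. Among the other genes past the threshold, Rhobtb1 and Slc41a3 each had 1 E-box match in a window. A match says only that the letters are present.

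In the 12 libraries, 10365 to 10805 genes reached 1 FPKM, and depth could not be recovered from the values, so it is unknown. One library of each group stood apart: in replicate 2 of control and replicate 1 of cK15, at noon and at 4 pm, the top 10 genes by FPKM made up 16.1% to 17.2% of a library's sum, and 21.9% to 24.5% in the other libraries. Each group held 1 such library, and counts without them are given with the results. Cardiomyocyte markers were present, with 8 genes summing to between 56601 and 106760 FPKM and none at 0 throughout a group. Klf15 was 2.04, 0.656 and 1.25 FPKM in control at noon and 1.19, 1.64 and 0.726 at 4 pm. In cK15 it was 0.188, 0 and 0 at noon and 0.0997, 0.326 and 0 at 4 pm, so no cK15 library reached the lowest control library. Klf15 was below the filter and was not tested.

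The 6 genes called in control are placed here by RefSeq for GRCm38.p6. Arntl lies on chromosome 7 at 113178471 to 113314126, Gm129 on chromosome 3 at 95878500 to 95882257 and Per2 on chromosome 1 at 91415977 to 91459351. Rhobtb1 lies on chromosome 10 at 69151058 to 69291791, Gpam on chromosome 19 at 55067635 to 55127319 and Col5a3 on chromosome 9 at 20770050 to 20815117. All 6 are protein-coding, and all except Col5a3 overlap another annotated gene, mostly a long non-coding RNA (C920021L13Rik for Gm129). Reads in such overlaps cannot be assigned unless counting used strand, which is not stated.

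In control hearts, Arntl and the matrix gene Col5a3 fell from noon to 4 pm, and the clock repressors Gm129 and Per2 rose, with Rhobtb1 and the lipid-synthesis gene Gpam. These were the 6 of 10599 genes past the threshold (0.0566%; limma on log2(FPKM + 1), Benjamini-Hochberg adjusted p under 0.05), 4 higher and 2 lower. At an unadjusted p under 0.05 there were 290 genes. The 36 libraries entered as 12 group means, and log2 changes are differences in log2(FPKM + 1), which come out too small for genes of low level. Without the libraries that stood apart 5 genes passed.

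Arntl, the activator at the centre of the clock loop, was 8.85, 11.7 and 12.2 FPKM in control at noon and 1.99, 2.33 and 2.25 at 4 pm. The groups were far apart, with the lowest noon library above every 4 pm library. The log2 change was -1.89 (SE 0.25; limma adjusted p = 0.000187), and it stayed past the threshold in all 25 alternative settings. Gm129 was 6.13, 3.21 and 3.68 FPKM at noon and 20.1, 12.8 and 13.3 at 4 pm, with no overlap. Its log2 change of 1.63 (SE 0.26; limma adjusted p = 0.00365) had the largest size of those that rose. The call ended without replicate 2 of 4 pm (adjusted p = 0.0796) or replicate 3 or 4 of noon (0.0975 and 0.0619), over a range of 0.000263 to 0.0975 in the 25 settings. Per2, a repressor that dimerises with Cry proteins, was 2.15, 1.11 and 1.73 FPKM at noon and 3.96, 3.95 and 3.27 at 4 pm. All 3 libraries of 4 pm were above all 3 of noon, and the change was 0.84 (SE 0.16; limma adjusted p = 0.0182).

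Rhobtb1, an atypical small GTPase that serves as a cullin-3 adaptor, was 11.9, 9.19 and 8.27 FPKM at noon and 19.5, 21.9 and 16.9 at 4 pm. Its control groups did not overlap either, and it rose by 0.93 (SE 0.16; limma adjusted p = 0.0102). Gpam, the mitochondrial enzyme that starts triglyceride synthesis, was 110, 116 and 109 FPKM at noon and 158, 162 and 175 at 4 pm. The libraries of each time lay close together, and the change of 0.56 (SE 0.11; limma adjusted p = 0.0238) was the smallest among the 6. Col5a3, which encodes a chain of type V collagen, was 9.95, 11.5 and 9.87 FPKM at noon and 5.42, 4.62 and 6.41 at 4 pm. The later libraries all lay below the earlier ones, and the change was -0.83 (SE 0.15; limma adjusted p = 0.0182).

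These last calls depended on single libraries. Rhobtb1 was lost without replicate 2 or 3 of 4 pm (limma adjusted p = 0.0796 and 0.129) or replicate 3 or 4 of noon (0.112 and 0.151). Gpam was lost without any 1 of the 6 control libraries (limma adjusted p from 0.0837 without replicate 2 of 4 pm to 0.255 without replicate 4 of 4 pm). Col5a3 was lost without any noon library or replicate 2 or 3 of 4 pm (limma adjusted p from 0.0547 to 0.275). Per2 was lost without replicate 2 or 3 of 4 pm or replicate 3 or 4 of noon (limma adjusted p from 0.0949 to 0.421). No sign changed in these fits. Over all their settings the adjusted p spanned 0.000263 to 0.204 for Rhobtb1, 0.00106 to 0.285 for Gpam, 0.00117 to 0.275 for Col5a3 and 0.00364 to 0.421 for Per2.

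Same-numbered libraries of noon and 4 pm deviated together. The highest correlations, 0.538 in control and 0.504 in cK15, were between the libraries that stood apart. A fit of only the 12 libraries of noon and 4 pm, with the replicate number as a block, gave 23 genes past the threshold in control (0.217%), 19 higher and 4 lower, where the same 12 libraries without the block gave 2. This fit is meant wherever the block is named below. Arntl, Gm129, Gpam and Rhobtb1 were among the 23. Col5a3 and Per2 were not (limma adjusted p = 0.0663 and 0.0846), and without the block the 12 libraries gave 0.132 and 0.223. In the 36 libraries with the replicate as a random block both passed (limma adjusted p = 0.00521 and 0.00408). The random block takes a number as the same series at all times, which was checked only between noon and 4 pm. At 8 pm the library that stood apart was replicate 4 in both genotypes. The genes named from the fit of the 12 libraries with the block were chosen after their values were seen. They included Acaa2 (the last step of fatty acid oxidation), Dgat2 (triglyceride synthesis), Ephx2 (epoxide hydrolysis), Sphk2 (sphingosine phosphorylation) and Gpcpd1 (glycerophosphocholine breakdown). Gpcpd1 was 142, 129 and 110 FPKM at noon and 220, 194 and 185 at 4 pm, a change of 0.65 (SE 0.069; limma adjusted p = 0.0129 with the block).

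Adh1, Retsat and Hsd11b1 were also among the 23. Adh1, an alcohol dehydrogenase that also oxidises retinol, was 12.2, 11.5 and 11.2 FPKM at noon and 22.4, 26.1 and 22.5 at 4 pm (0.96, SE 0.11; limma adjusted p = 0.0129 with the block). Retsat, which saturates retinol, was 33.8, 36.4 and 34.3 FPKM at noon and 44.8, 52.5 and 55.7 at 4 pm. Neither had overlapping groups. Hsd11b1, which regenerates active glucocorticoid, was 20.8, 16.7 and 18.5 FPKM at noon and 13.8, 9.62 and 8.21 at 4 pm, the opposite direction (-0.79, SE 0.11; limma adjusted p = 0.023 with the block). Per3 and the cell cycle kinase Wee1, a known clock output, were also among the 23, with Wee1 at 4.49, 2.36 and 2.86 FPKM at noon and 10.2, 7.24 and 5.98 at 4 pm. The remaining calls were Usp2, Art1, Tspan4, Dhrs7c, Lgals4, Nr2c2ap and BC090627, which were higher at 4 pm, and Zmat5 and Clasp1, which were lower.

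In cK15 hearts, 4 genes passed (0.0377%; limma on log2(FPKM + 1), adjusted p under 0.05): AI507597 and Per2 rose, and Col5a3 and Slc41a3 fell. At an unadjusted p under 0.05 there were 286 genes, and 3 genes passed without the libraries that stood apart. AI507597, a long non-coding RNA, was 3.08, 1.26 and 4.01 FPKM at noon and 8.8, 10.4 and 12.6 at 4 pm. Every later library was more than the highest earlier one, and the change was 1.68 (SE 0.23; limma adjusted p = 0.000605). It lies on chromosome 4 at 141614370 to 141615604 (GRCm38.p6) and overlaps Tmem82, so the assignment of its reads is uncertain. Tmem82 was 1.25, 0.308 and 0.295 FPKM at noon and 1.33, 1.09 and 1.33 at 4 pm.

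Col5a3 was 7.51, 9.53 and 8.19 FPKM at noon in cK15 and 3.42, 3.28 and 3.88 at 4 pm. The 2 times did not overlap, and the change was -1.05 (SE 0.15; limma adjusted p = 0.000728), a call kept without each single cK15 library. Slc41a3, a magnesium transporter of mitochondria (chromosome 6, 90604730 to 90646412), was 37.9, 30 and 33.4 FPKM at noon and 18.4, 21.1 and 15.5 at 4 pm. It too had separate groups, with a change of -0.85 (SE 0.16; limma adjusted p = 0.0282). Per2 was 3.59, 2.48 and 2.77 FPKM at noon and 6.57, 6.24 and 6.15 at 4 pm (0.90, SE 0.16; limma adjusted p = 0.0108). All cK15 libraries of 4 pm lay above every control library of that time.

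Single libraries ended 2 of these calls. Slc41a3 was lost without any noon library or replicate 1 or 4 of 4 pm (limma adjusted p from 0.0567 to 0.363; 0.0024 to 0.363 over 25 settings). Per2 was lost without replicate 1 or 4 of 4 pm or replicate 3 or 4 of noon (limma adjusted p from 0.0631 to 0.174; 0.00219 to 0.294 over 24 settings). With the block, over the 12 libraries, 13 genes passed in cK15 (0.123%), 5 higher and 8 lower, and without it the 12 libraries gave 0 (limma; 315 at an unadjusted p under 0.05). AI507597, Col5a3 and Slc41a3 were among the 13. Per2 was not (limma adjusted p = 0.0955, and 0.294 without the block), and it passed in the 36 libraries with a random block (0.00219).

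Arntl passed in cK15 with the block (limma adjusted p = 0.025) and with the random block (0.0101), and without a block it did not pass in the 36 libraries (0.059) or the 12 (0.261). It was 2.8, 6.4 and 4.8 FPKM at noon and 1.01, 1.52 and 1.55 at 4 pm (-1.22, SE 0.25 in the 36 libraries). The cK15 noon libraries were all below the control noon libraries. Among its other calls with the block, chosen after their values were seen, lower at 4 pm were the fibrillin gene Fbn1, the endothelial receptor gene Kdr, the prostaglandin synthase gene Ptgds, Cmss1 and 4930562F07Rik. Fbn1 was 43.4, 36.3 and 36.2 FPKM at noon and 23.8, 20.7 and 27.0 at 4 pm. Kdr, a VEGF receptor of endothelial cells, was 73.8, 73.7 and 67.6 FPKM at noon and 51, 47.9 and 53.7 at 4 pm. Aldh1a1, which makes retinoic acid from retinal, was higher at 4 pm with Adh1, Gpcpd1 and LOC100504703, at 17.3, 25.4 and 19.2 FPKM at noon and 26.9, 37.2 and 27.3 at 4 pm.

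**Figure D1:**
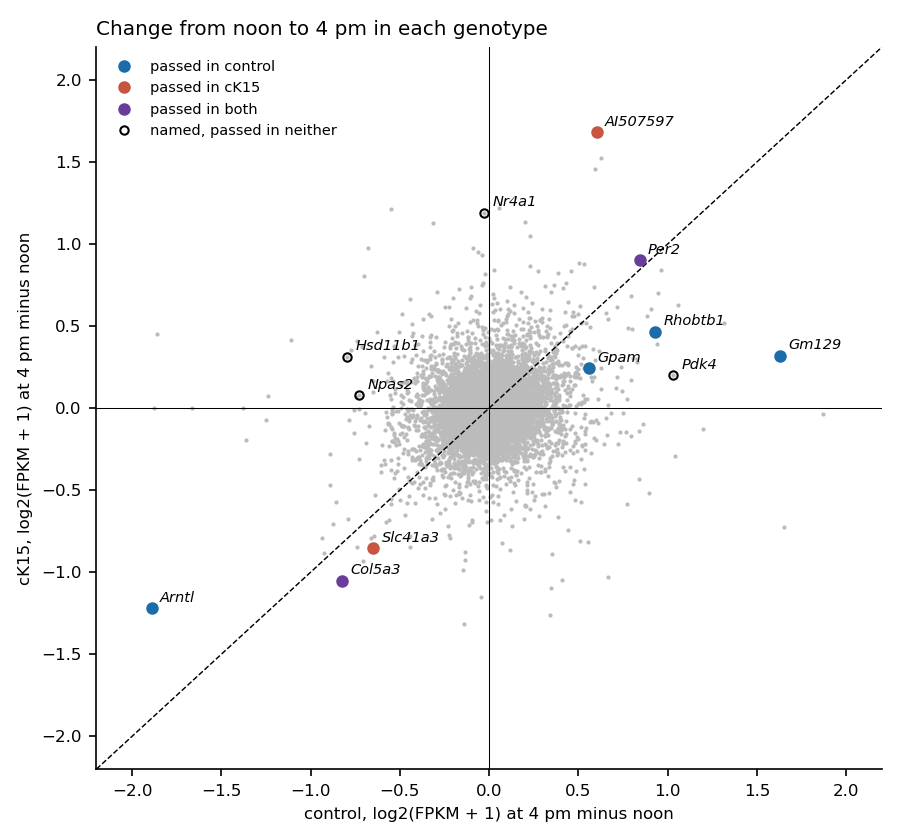
Each point is 1 of the 10599 tested genes, with the control step on the x axis and the cK15 step on the y axis, both as the difference in mean log2(FPKM + 1) between 4 pm and noon. Colours mark genes past the threshold in control, in cK15 or in both, open circles mark 4 named genes past it in neither, the dashed line is equality, and 6 genes lie outside the axes of ±2.2. Arntl, Col5a3, Per2 and Slc41a3 lie towards the corners of same direction, and Gm129 lies far to the right of the line.

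The 2 steps shared 2 calls, Col5a3 and Per2, which were 33.3% of the control calls and 50% of the cK15 calls. All 6 control calls had the same sign in cK15, and all 4 cK15 calls the same sign in control. With the block the shared calls were Adh1, Arntl and Gpcpd1, 13% of the control calls and 23.1% of the cK15 calls. Of those calls, 21 of 23 and 11 of 13 had the same sign in the other genotype. Over all tested genes the steps had a Pearson correlation of 0.188 and a Spearman correlation of 0.141 across genes, which are not independent, and 55.3% had the same sign. The 2 steps have no library in common.

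Gpam, Rhobtb1 and Slc41a3 show the sizes side by side in the other genotype. Gpam in cK15 was 96.1, 83.4 and 96.1 FPKM at noon and 105, 112 and 109 at 4 pm, again with no overlap but a change of 0.24 (SE 0.11). Rhobtb1 in cK15 was 19, 15 and 17.7 FPKM at noon and 27.5, 18.5 and 27.3 at 4 pm, where replicate 3 of 4 pm lay within the noon range (0.47, SE 0.16). Slc41a3 in control was 45.6, 38 and 39.7 FPKM at noon and 30.7, 26.3 and 21.2 at 4 pm, with no overlap (-0.65, SE 0.16; limma adjusted p = 0.235).

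Of the 5 clock activators tested, Arntl was described above, and Clock, Npas2 and Rora did not pass in either genotype. Clock, a partner of Arntl, was 20.6, 15.4 and 14.6 FPKM at noon and 16, 11.5 and 13.3 at 4 pm in control. Its cK15 values were 16.9, 15 and 15 at noon and 13.8, 12.5 and 12.3 at 4 pm, and there the times did not overlap. The changes of Clock were nevertheless alike, -0.29 in control and -0.26 in cK15 (SE 0.16 each). Npas2, which can take the place of Clock, was 1.5, 1.28 and 1.79 FPKM at noon and 0.53, 0.29 and 0.769 at 4 pm in control, all lower. Its values in cK15 were 1.11, 0.801 and 1.12 at noon and 0.799, 0.95 and 1.7 at 4 pm, which overlap. The receptor gene Rora (changes of 0.29 and 0.21 in control and cK15) overlapped between the times in both genotypes, and Rorb was below the filter.

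The 10 repressors had a median change of 0.385 in control and 0.339 in cK15, against 0.010 and 0.004 over all tested genes. In control 5 of the 10 were higher at 4 pm in every library than in any library of noon (Per1, Per2, Per3, Cry2 and Gm129), and in cK15 4 (the same without Cry2). None was lower without overlap. Over all tested genes such separation upwards was seen in 4.23% in control and 2.95% in cK15, and downwards in 3.42% and 2.74%. Clock genes were chosen with earlier results of these data known.

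Per1, a target of the activators and partner of the Cry proteins, was 2.35, 1.77 and 3.32 FPKM at noon and 5.51, 4.35 and 6.59 at 4 pm in control. Hearts of cK15 mice held 4.26, 4.62 and 7.42 at noon and 9.58, 7.67 and 8.54 at 4 pm. The cK15 noon libraries were all above the control noon libraries, and the changes were 0.91 and 0.60 (SE 0.30 each; limma adjusted p = 1 in both). Per3 was 6.06, 4.39 and 4.96 FPKM at noon and 10.9, 8.45 and 8 at 4 pm in control, and 7.25, 4.95 and 7.8 at noon and 12.6, 8.39 and 11.1 at 4 pm in cK15. Its changes were 0.72 and 0.61 (SE 0.20 each), and it passed in control with the block (limma adjusted p = 0.0337) and not in the 36 libraries without it (0.402).

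The cryptochromes and the nuclear receptor repressors did not pass. Cry1 was 3.12, 3.35 and 3.73 FPKM at noon and 4.44, 2.55 and 3.9 at 4 pm in control, and 4.28, 3.18 and 4.03 at noon and 6.01, 4.26 and 5.67 at 4 pm in cK15. In both genotypes the times overlapped. Nr1d1 (Rev-erb alpha) was 10, 7.18 and 10.7 FPKM at noon and 11.9, 9.81 and 9.04 at 4 pm in control, but 11.3, 6.77 and 11 at noon and 8.47, 5.92 and 5.85 at 4 pm in cK15. The times overlapped in both, with changes of 0.14 and -0.45 (SE 0.22 each). Nr1d2 had changes of 0.37 and 0.36, Cry2 of 0.30 and 0.19, Bhlhe40 of 0.29 and -0.26 and Bhlhe41 of 0.40 and -0.10, and none of these passed.

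Among the PAR bZIP genes, Dbp was 21.4, 12.6 and 13.9 FPKM at noon and 30.8, 29.6 and 25.2 at 4 pm in control, without overlap. The cK15 values were 21.8, 17.6 and 24.6 at noon and 26.3, 30.9 and 22.2 at 4 pm, with overlap. For Tef the control libraries overlapped (7.17, 5.56 and 4.47 FPKM at noon, 9.96, 9.63 and 6.11 at 4 pm). Its cK15 libraries did not (9.1, 7.14 and 6.85 at noon, 14.6, 9.92 and 11.5 at 4 pm). The changes of Tef were nevertheless alike, 0.50 in control and 0.57 in cK15 (SE 0.20 each). Those of Dbp were 0.83 and 0.30 (SE 0.26 each). Neither gene passed, and Hlf and Nfil3 were below the filter. Of 15 clock kinases, ligases and outputs tested 0 passed by limma. At an unadjusted limma p under 0.05 there were 4 in control and 2 in cK15, where 290 and 286 of all 10599 tested genes were. With the block Usp2, Wee1 and Tspan4 passed in control, where 0.217% of all tested genes did.

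**Figure D2:**
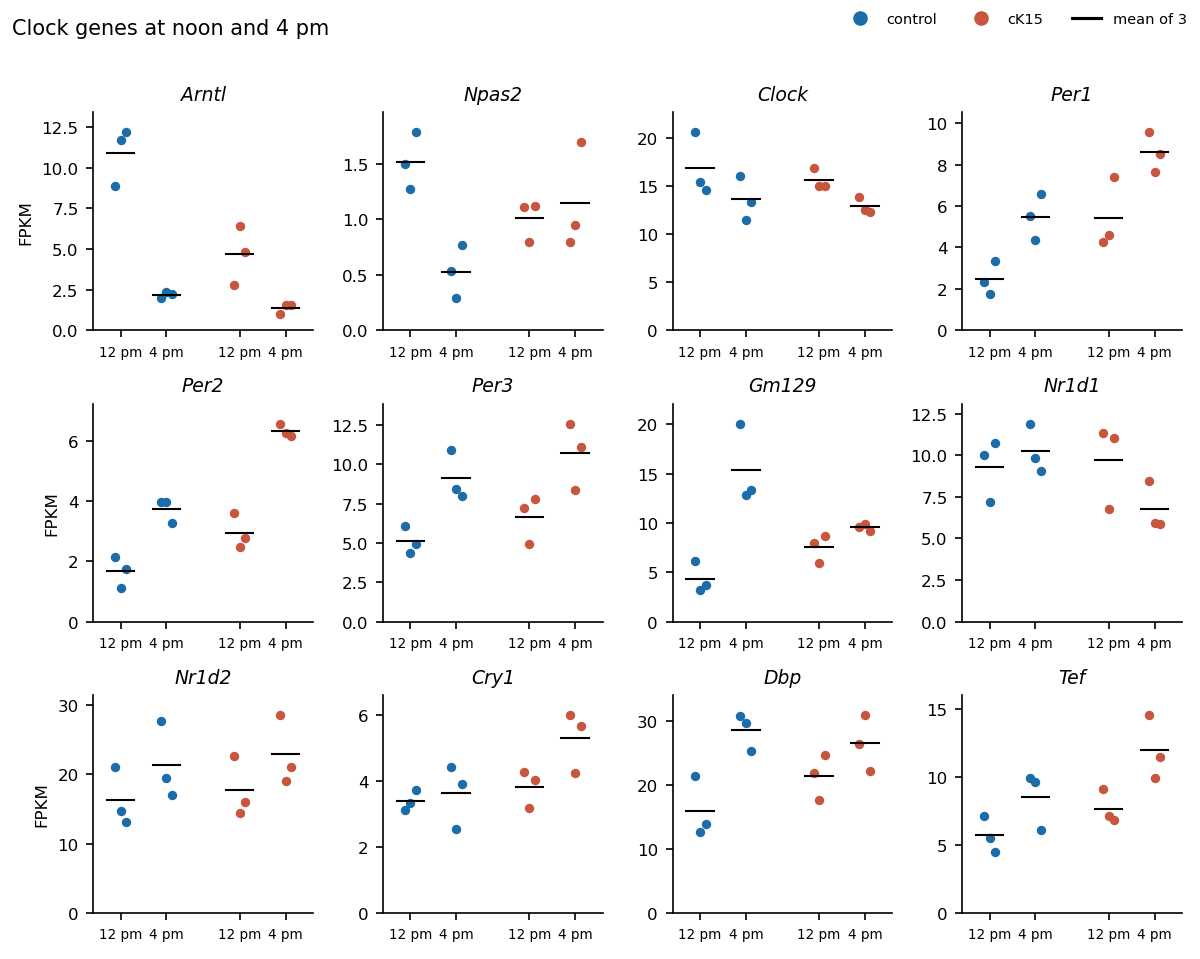
FPKM of 12 clock genes in each library at noon and 4 pm, control in blue and cK15 in red, with a black bar at the mean of 3 and a linear axis from 0 in each panel. Arntl is lower at 4 pm in both genotypes, Per1, Per2 and Per3 are higher in both, and the Gm129 libraries of 4 pm reach 20.1 in control and 9.87 in cK15.

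Without a model, 40 genes were higher at 4 pm than at noon with no overlap in both genotypes (0.377% of those tested), 42 were lower in both (0.396%), and 21 separated in opposite directions (0.198%). Named members were chosen after their values were seen. The 40 held Per1, Per2, Per3, Gm129, Wee1, Adh1, Aldh1a1, Gpam, Gpcpd1 and AI507597. Also among them was Mthfd1l, a mitochondrial enzyme of folate metabolism, at 1.01, 1.24 and 1.08 FPKM at noon and 2.51, 1.71 and 2.32 at 4 pm in control. Levels in cK15 were 1.08, 1.39 and 1.34 at noon and 3.2, 2.04 and 3.21 at 4 pm, and the genotypes overlapped at both times. Slc25a34, a mitochondrial carrier, had the same change of 0.44 in both genotypes from different levels, 17.6, 15.2 and 16.4 FPKM at noon in control and 9.95, 6.63 and 6.57 in cK15.

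The 42 held Arntl, Col5a3, Slc41a3, Kdr, Nppb, Rcan1, Ankrd23 and Eln. Nppb, which encodes B-type natriuretic peptide, was 490, 357 and 357 FPKM at noon and 239, 175 and 217 at 4 pm in control. The cK15 libraries held 472, 490 and 308 at noon and 234, 161 and 299 at 4 pm, where replicate 4 came close to overlap (changes of -0.92 and -0.88, SE 0.32 each; limma adjusted p = 1 in both). Rcan1, an inhibitor of calcineurin, was 12.1, 14.8 and 14.8 FPKM at noon and 9.71, 9.76 and 7.95 at 4 pm in control, and 12, 15.2 and 12.4 at noon and 8.44, 9.74 and 7.76 at 4 pm in cK15. Ankrd23, a titin-binding stretch-response protein, was 233, 279 and 312 FPKM at noon and 168, 200 and 158 at 4 pm in control, and 217, 295 and 200 at noon and 169, 170 and 147 at 4 pm in cK15. Eln, which encodes elastin, had changes of -0.71 and -0.93 (SE 0.26 each).

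Levels at the other times place the step within the day of each gene. Mean Arntl in control was highest at 8 am (27.3 FPKM) and lowest at 8 pm (1.21), so the step lay on its way down, and in cK15 it was highest at 4 am (25.6) and lowest at 4 pm (1.36). Per2 was lowest at 8 am and highest at 8 pm in both genotypes, with means at noon and 4 pm of 1.66 and 3.73 FPKM in control and 2.94 and 6.32 in cK15. Gm129 had its highest mean at 4 pm in both, 15.4 FPKM in control and 9.56 in cK15. Col5a3 and Slc41a3 were highest at 8 am and lowest at 8 pm in both genotypes, and Rhobtb1 and Adh1 were highest at 8 pm and lowest at 8 am. AI507597 had its lowest mean at noon in both, and its highest at 8 pm in control (16.9) and at 4 pm in cK15 (10.6).

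**Figure D3:**
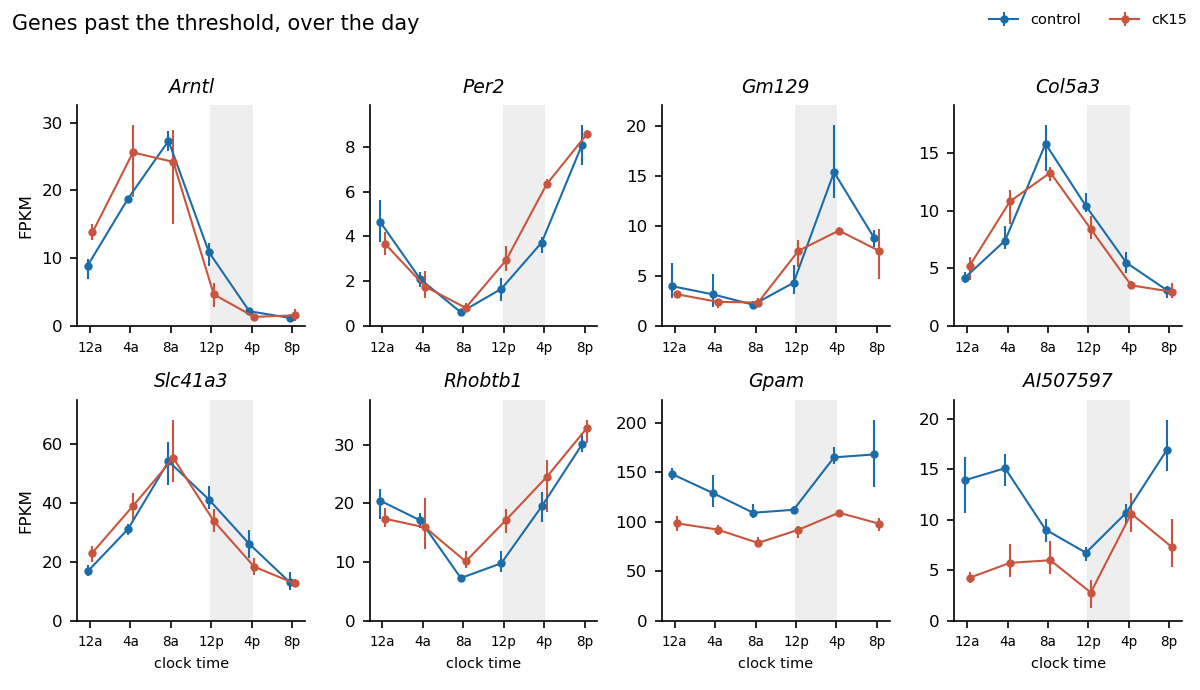
Mean FPKM at the 6 times for the 8 genes past the threshold in either step, control in blue and cK15 in red, with bars from the lowest to the highest of 3 libraries and the step from noon to 4 pm shaded. The means of Arntl, Col5a3 and Slc41a3 are lower at the end of the shaded interval than at its start, those of Per2 and Rhobtb1 are higher, and Gm129 has its highest mean at 4 pm in both genotypes.

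When the 2 steps were compared directly, 0 of 10599 genes passed (0%; limma interaction test), with 172 at an unadjusted p under 0.05. The replicate block also gave 0, with 565 at an unadjusted p under 0.05. The 5 genes with the smallest p, none of which passed, were Hsd11b1, Gm129, Npas2, Usp18 and AI507597. Each had a limma adjusted p = 1.

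Hsd11b1, on chromosome 1 at 193221640 to 193264045, was lower at 4 pm in control, as given above, and in cK15 it was 15.9, 20.4 and 16.4 FPKM at noon and 21.4, 23.3 and 21.1 at 4 pm. The groups of the 2 genotypes separated in opposite directions, with a difference of 1.11 between the steps (SE 0.28; limma adjusted p = 1, and 0.0834 with the block). Gm129 in cK15 was 8.01, 5.95 and 8.66 FPKM at noon and 9.58, 9.87 and 9.23 at 4 pm. The genotypes overlapped at noon, and at 4 pm every cK15 library was below every control library (difference -1.31, SE 0.36; limma adjusted p = 1, and 0.0834 with the block). For Npas2, whose values are given above, the difference was 0.81 (SE 0.24; limma adjusted p = 1). With the block LOC100504703 (difference 1.76, SE 0.22) and Cmss1 (-0.85, SE 0.11) also had a limma adjusted p = 0.0834 and did not pass.

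Usp18, an interferon-induced protease that removes ISG15, was 5.31, 5.5 and 6.14 FPKM at noon and 3.8, 3.98 and 5.2 at 4 pm in control. In cK15 it was 3.93, 2 and 3.14 at noon and 4.63, 4.97 and 4.87 at 4 pm, so the times separated the opposite way (difference 0.89, SE 0.26; limma adjusted p = 1). AI507597 in control was 5.93, 6.97 and 7.27 FPKM at noon and 11.1, 9.54 and 11.6 at 4 pm. At 4 pm the genotypes overlapped, and at noon every cK15 library was below every control library (difference 1.08, SE 0.33; limma adjusted p = 1). Arntl had a difference of 0.67 (SE 0.35), Col5a3 of -0.23 (SE 0.21) and Per2 of 0.06 (SE 0.22), with limma adjusted p = 1 for each.

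Among genes chosen after their values were seen, Nr4a1, an immediate early nuclear receptor, was 1.03, 1.41 and 1.38 FPKM at noon and 0.693, 1.26 and 1.87 at 4 pm in control. In cK15 it was 1.6, 0.506 and 1.7 at noon and 5.39, 3.6 and 3.28 at 4 pm, so the times separated in cK15 and overlapped in control (difference 1.22, SE 0.41; limma adjusted p = 1). Of 22 immediate early genes listed, only 8 were tested, and the others were below the filter. Among the 8, Nr4a1, Atf3 and Btg2 separated upwards in cK15 and Dusp6 downwards, where 2.95% and 2.74% of all tested genes did. Genes near the filter can enter through the groups where they are high, so these counts only describe. Mean Atf3 was 0.72 FPKM at noon and 0.723 at 4 pm in control, and 0.787 and 2 in cK15. In control 0 separated upwards and Dusp6 downwards, where 4.23% and 3.42% of all tested genes did.

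**Figure D4:**
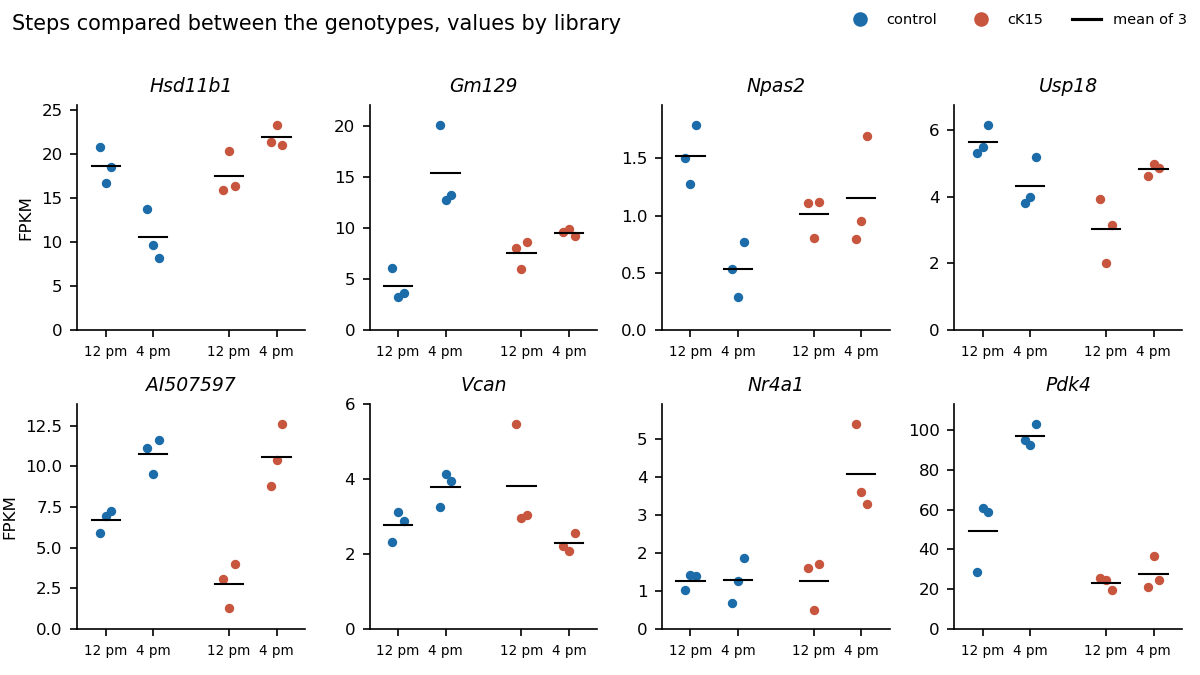
FPKM of 8 genes in each library at noon and 4 pm, control in blue and cK15 in red, with a black bar at the mean of 3 and a linear axis from 0 in each panel. Hsd11b1, Usp18 and Vcan separate in opposite directions in the 2 genotypes, and none of the 8 passed the test of the difference.

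The heart burns mainly fatty acids, and the genes for their uptake and oxidation had a median step of 0.194 in control over 37 genes, against 0.010 over all tested genes. The step was above 0 for 32 of the 37, and for 5633 of all 10599 tested genes. In cK15 the median was 0.049 against 0.004, with 26 of 37 above 0, where 5426 of 10599 tested genes were. Quantile normalization gave medians of 0.165 and 0.049, and the libraries without those that stood apart gave 0.186 and 0.02. No member passed in either step or for the difference by limma. At an unadjusted limma p under 0.05 there were 7 in control and 0 in cK15, where 290 and 286 of all 10599 tested genes were. With the block Acaa2 and Dgat2 passed in control, where 0.217% of all tested genes did.

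Without overlap, 10 of the 37 were higher at 4 pm in control and 0 lower (8 and 0 after quantile normalization), where 4.23% and 3.42% of all tested genes were. In cK15 1 of 37, Acsl1, was higher and 0 lower, where 2.95% and 2.74% of all tested genes were. The 10 were Slc27a1, Acsl1, Cpt1a, Cpt1b, Slc25a20, Acads, Hadha, Hadhb, Echs1 and Pdk4. They run from fatty acid uptake and activation (Slc27a1, Acsl1) and entry into mitochondria (Cpt1a, Cpt1b, Slc25a20) to the enzymes of beta-oxidation (Acads, Hadha, Hadhb, Echs1). Pdk4, the kinase that restrains glucose oxidation, was 28.6, 60.9 and 58.7 FPKM at noon and 94.8, 92.6 and 103 at 4 pm in control. The cK15 hearts held 25.8, 24.5 and 19.6 at noon and 21.1, 36.6 and 24.6 at 4 pm, below every control library of the same time (difference in steps -0.83, SE 0.41; limma adjusted p = 1).

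Hadha, the alpha subunit of the trifunctional protein, was 846, 858 and 788 FPKM at noon and 963, 1049 and 946 at 4 pm in control. The cK15 counterparts were 691, 747 and 731 at noon and 731, 805 and 726 at 4 pm, overlapping. Slc25a20, which carries acylcarnitine into the matrix, was 175, 207 and 194 FPKM at noon and 217, 235 and 222 at 4 pm in control, and 136, 152 and 140 at noon and 123, 141 and 146 at 4 pm in cK15. The cK15 step was below the control step for 30 of 37 members, with a median difference of -0.160, where 5423 of 10599 tested genes had a lower cK15 step and the median difference was -0.005. These counts describe the list, which was chosen with earlier results known, and no test compared it with other genes.

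**Figure D5:**
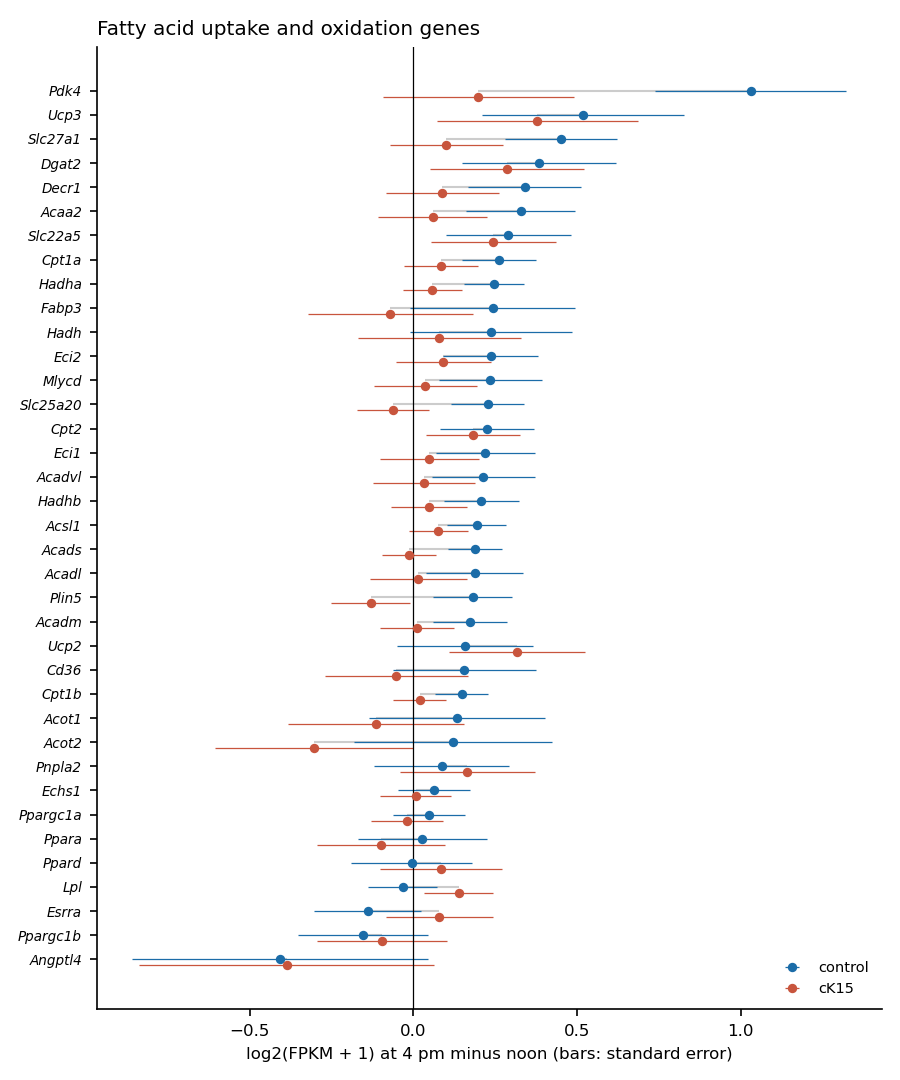
Step from noon to 4 pm for the 37 tested genes of fatty acid uptake and oxidation, ordered by the control step, as the difference in mean log2(FPKM + 1), control in blue and cK15 in red, with bars of 1 standard error. For 30 of 37 genes the cK15 point lies to the left of the control point, and many bars overlap.

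The hypertrophy and fetal programme list had 0 of 13 genes past the limma threshold in each step, with medians of -0.140 and -0.186. At an unadjusted limma p under 0.05 there were 3 in control and 4 in cK15, where 290 and 286 of all 10599 tested genes were. In each genotype 4 genes were lower at 4 pm without overlap and 0 higher (of all tested genes 3.42% were lower in control and 2.74% in cK15), Nppb, Rcan1, Nppa and Ctgf in control and Nppb, Rcan1, Acta1 and Ankrd1 in cK15. Nppa, which encodes atrial natriuretic peptide, was 179, 158 and 195 FPKM at noon and 101, 92.6 and 94.6 at 4 pm in control. Of the other atrial markers, Myl7 was 5.31, 8.16 and 9.49 FPKM at noon and 2.85, 2.72 and 2.2 at 4 pm in control, Myl4 overlapped, and Sln and Bmp10 were listed at 0 in all 12 libraries except 0.759 for Sln in control replicate 4 of noon. The summed level of these 4 markers, Nppa left out, was 8.69 to 18.4 FPKM at noon and 3.93 to 6.76 at 4 pm in control, and 4.05 to 7.4 and 5.28 to 10.7 in cK15, and their part in the Nppa values was not tested. Acta1, skeletal alpha-actin, was 211, 364 and 162 FPKM at noon and 91.4, 83.7 and 104 at 4 pm in cK15, and 131, 276 and 281 at noon and 145, 177 and 297 at 4 pm in control, where the times overlapped.

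Matrix genes beside Col5a3 went both ways in control, with medians of 0.017 in control and -0.092 in cK15 over 19 tested genes. In control 4 of the 19 were higher at 4 pm without overlap, Fn1, Timp1 and Timp3 among them, and Col4a1, Col4a2, Mmp2 and Thbs1 were lower, where 4.23% and 3.42% of all tested genes were. In cK15 0 were higher and Col3a1, Col4a2, Fbn1 and Thbs1 were lower, where 2.95% and 2.74% were. Timp3, an inhibitor of matrix metalloproteinases, was 11.6, 8.87 and 8.65 FPKM at noon and 16.5, 14.9 and 12.9 at 4 pm in control, and 15.7, 10.2 and 9.31 at noon and 20.1, 14 and 15.9 at 4 pm in cK15, where the times overlapped. Col3a1, fibrillar collagen of type III, was 144, 152 and 125 FPKM at noon and 91.2, 111 and 112 at 4 pm in cK15 and overlapped in control. No matrix gene of the list passed by limma. At an unadjusted limma p under 0.05 there were 5 in control and 4 in cK15, where 290 and 286 of all 10599 tested genes were. With the block Fbn1 passed in cK15, where 0.123% of all tested genes did.

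The 7 endothelial markers summed to 322 to 333 FPKM at noon and 281 to 294 at 4 pm in control, without overlap, and to 280 to 316 and 248 to 299 in cK15, with overlap. In control Pecam1, Cdh5 and Kdr were lower and Vwf was higher without overlap, where 3.42% and 4.23% of all tested genes were. In cK15 only Kdr was lower and 0 were higher, where 2.74% and 2.95% of all tested genes were. None of the 7 was listed at 0 throughout a group. In bulk tissue fewer cells of a type and less RNA per cell cannot be told apart. The part of these markers in the values of Kdr, Col4a1, Col4a2 and other vessel genes was not tested. Fibroblast markers summed to 1435 to 1607 FPKM at noon and 1512 to 1799 at 4 pm in control, and to 1196 to 1519 and 1260 to 1431 in cK15.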

How the data were processed

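RNA of the heart apex was depleted of ribosomal RNA and sequenced as stranded libraries, per the labels' protocols. The authors deposited FPKM for 23352 gene entries in a table for each genotype; the submitters' processing notes name GSNAP, HTSeq and mm10, while roles, versions, annotation and strand setting are not given in these sources. Because FPKM is scaled to each library's total, abundant genes can lower the values of others. Whole-read steps were looked for in the low values and not recovered, so depth is unknown and no counting interval is given.

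Values were used as log2(FPKM + 1) for genes with a mean of at least 1 FPKM. limma 3.58.1 in R 4.3.3 was fitted to 12 group means over 36 libraries, with variance moderation that followed expression and was robust, with Benjamini-Hochberg adjustment over 10599 genes (threshold 0.05). The scripts were tested on simulated data. Entries turned into dates (18 of those tested) and 2 repeated symbols are not named.

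Named were all genes past the threshold, clock activators, repressors and PAR bZIP genes, Klf15, and the 5 smallest p-values of the difference; other names are said to be chosen after their values were seen or belong to a list. The lists and members were chosen with earlier results of these data known. Lists are described by counts and medians without a test. A few list members counted there are not reported here by name.

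Replicate numbers come from the sample titles, and nothing says what a shared number means. Deviations from group means correlated at 0.276 to 0.538 in all 6 same-numbered pairs of noon and 4 pm, above the limit of 0.1 set for pairing. The others correlated at -0.361 to 0.12, where replicates 3 and 4 of control (0.12 and 0.103) also exceeded 0.1. The fit with the number as a block is therefore printed where it changed a call. The part in its calls of the libraries that stood apart was not tested. Alternatives were other pseudocounts, filters, scalings, sets of libraries, replicate blocks, variance moderation and each library left out. Promoters and positions are from RefSeq tables of GRCm38.p6, the build of mm10.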

Additional observations from a re-analysis of the deposited data

Results flagged for a closer look

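Hsd11b1, Usp18 and Vcan were among the genes whose 3 libraries of 4 pm all lay on one side of noon in control and on the other side in cK15. The difference between the steps, cK15 minus control, was 1.11 for Hsd11b1 (SE 0.28), 0.89 for Usp18 (SE 0.26) and -0.85 for Vcan (SE 0.27). The limma test of the difference gave an adjusted p = 1 for each, and with the replicate block 0.0834, 0.676 and 0.77, so none passed. Vcan, a matrix proteoglycan, was 2.33, 3.13 and 2.89 FPKM at noon and 3.25, 4.12 and 3.94 at 4 pm in control, and 5.46, 2.95 and 3.03 at noon and 2.2, 2.08 and 2.57 at 4 pm in cK15. Of all tested genes 21 (0.198%) separated in opposite directions, and these 3 were picked after their values were seen. Another of the 21, 9430038I01Rik, had a difference of -1.19 (SE 0.42). Within single genotypes, 4.23% of tested genes separated upwards and 3.42% downwards in control, and 2.95% and 2.74% in cK15.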

How the results depend on the processing

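In 25 alternative settings for each step and 24 for the difference, the difference had 0 genes past the threshold by limma in every setting. Of 6 control calls and 4 cK15 calls, the counts were 2 and 0 with only the 12 libraries of noon and 4 pm, 3 and 0 with only the 18 libraries of the genotype, 23 and 13 with the replicate block as a fixed term in those 12 libraries, 11 and 10 with the replicate block as a random series in all 36, and 20 and 9 with a term for the libraries that stood apart. Leaving out 1 of the 12 libraries at a time, of either genotype, gave 1 to 7 calls in control and 2 to 6 in cK15. The 7 came without replicate 3 of noon in cK15, and no control library left out raised the control count above 6. In control 1 gene passed without its replicate 2 of 4 pm or replicate 3 or 4 of noon, and 2 without replicate 3 of 4 pm. In cK15 2 passed without its replicate 1 or 4 of 4 pm or replicate 3 of noon. The cause was not tested. The calls of Col5a3 and Per2 in control and of Per2 in cK15 were lost in the 12 libraries with and without the fixed replicate block and kept in all 36 with the random one, and Arntl in cK15 passed with either block. Whether a number marks the same series at the other times, as the random block takes it, was not checked. Both rescalings, made after seeing the data for counts without overlap and for lists, left the control counts between 421 and 448 higher and 362 and 411 lower.

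Signs changed for small changes that had not passed. Without the libraries that stood apart, Cry1 was -0.12 in control and Bhlhe41 0.01 in cK15. With a pseudocount of 0.1, the difference for Per2 was -0.07. Without 1 library at a time, the control step ranged from -0.07 to 0.23 for Cry1, -0.02 to 0.24 for Nr1d1 and -0.5 to 0.08 for Acta1. The cK15 step ranged from -0.1 to 0.2 for Npas2 and -0.22 to 0.04 for Bhlhe41, and the Per2 difference from -0.07 to 0.22.

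Depth is unknown, so no limit for low values is given.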

Other observations

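Over all tested genes the median step was 0.010 in control and 0.004 in cK15, and 5633 and 5426 of 10599 had a step above 0. Genes of branched-chain amino acid breakdown had a median step of 0.107 in control, with 21 of 24 above 0, and 0.025 in cK15, with 15 of 24 above 0. In control 2 and in cK15 0 were higher at 4 pm without overlap, where 4.23% and 2.95% of all tested genes were, and 0 passed the threshold by limma (0 at an unadjusted p under 0.05 in either step). After quantile normalization the medians of this list were 0.077 in control and 0.025 in cK15, with 18 and 17 of the 24 above 0. The 20 oxidative phosphorylation genes had medians of 0.052 in control, with 18 above 0, and 0.022 in cK15, with 15 above 0. After quantile normalization 13 and 14 of these 20 were above 0. Genes of glucose uptake and glycolysis had medians of -0.041 and 0 over 20 genes, and adult sarcomere genes 0.033 and -0.005 over 19. Cytosolic ribosomal protein genes had medians of 0.046 and -0.035 over 76. The 9 macrophage markers had medians of 0.148 and 0.08, the 8 Kruppel-like factors -0.114 and 0.031, the 7 proliferation genes -0.15 and -0.022 and the 7 smooth muscle and pericyte markers -0.147 and -0.227. No gene of the last 4 lists passed by limma in either step. At an unadjusted limma p under 0.05 there were 0 in control and 1 smooth muscle and pericyte marker in cK15. Of all 10599 tested genes 290 and 286 were under that level.

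The 7 blood markers summed to 158 to 253 FPKM at noon and 132 to 179 at 4 pm in control, and to 117 to 231 and 113 to 254 in cK15, with overlap in both, and 3 of 6 tested had a step above 0 in control and 2 of 6 in cK15. One of them, S100a8, chosen after its values were seen, is a calcium-binding protein of neutrophils. It was listed at 0 in all 3 control libraries of noon and was 2.66 ± 0.125 FPKM at 4 pm, and it did not pass (SD, n = 3; limma adjusted p = 0.264). A gene this low can enter the test through the groups where it is high, so its values only describe. In cK15 S100a8 was 0.841 ± 0.729 FPKM at noon and 0.800 ± 0.765 at 4 pm (SD, n = 3 each). Its partner S100a9 was 0.747 ± 0.849 FPKM at noon and 1.48 ± 1.04 at 4 pm in control (SD, n = 3 each).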
